A study of Homo sapiens with 12 samples.

Results

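The genes described here are 44 genes of mitosis and the passage from G2 into mitosis, followed in A375 and LOX-IMVI BR, both human melanoma lines. They were chosen by symbol from the deposited count table, and all 44 were found among its 75253 rows. After a filter on low counts 43 of them were tested, among 29114 genes in all. Each line was left as control, treated with 6-thio-dG at 5 µM or treated with BIBR1532 at 25 µM, with 2 libraries in each of the 6 groups and 12 libraries in all. 6-thio-dG is a nucleoside analog that telomerase can build into telomeric DNA, and BIBR1532 is a small-molecule inhibitor of telomerase. The cells were grown in wells of 6-well plates at 25000 cells per well. The labels call the libraries of a group biological replicates and say no more of how they were made, so p-values measure the spread between these libraries, which may be technical. The time of exposure, the vehicle of the controls and the meaning of BR are not given in the sources used here.

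Entry into mitosis is driven by cyclin-dependent kinase 1 with B-type cyclins, switched on by CDC25 phosphatases and reinforced by the Polo and Aurora kinases. The spindle assembly checkpoint then holds the anaphase promoting complex until every kinetochore is attached to microtubules, after which securin and cyclin B are destroyed and the chromatids part. Most of these genes are transcribed in a wave late in the cell cycle, from promoters read by the DREAM, B-MYB and FOXM1 complexes, and are kept low in resting or arrested cells. Proliferation signatures of tumours are built largely from them. The 44 genes were ordered by role: 10 of mitotic entry, 5 of the spindle checkpoint, 4 of the chromosomal passenger complex, 6 of the centromere and kinetochore, 4 of anaphase and mitotic exit, 12 of spindle motors, spindle proteins and cytokinesis, and 3 of transcription and chromatin.

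Promoters are shown because these genes are known to share late cell cycle elements and because most of them moved together below. RefSeq promoter sequences (GRCh38.p14) were at hand for 37 of the 44 genes. AURKA, TTK, BUB3, BIRC5, UBE2C, TPX2 and FOXM1 had no entry. The 6 windows shown are those of 4 genes with the largest fall in a comparison below (PLK1, HMMR, TOP2A and KIF20A) and of CCNB2 and CDC20, which carry both motifs. Each window is 110 bases before to 10 bases after the annotated start, 5′ to 3′ on the gene's strand. Capitals mark the letters TTTGAA, the core of the cell cycle genes homology region, and CCAAT, the box bound by NF-Y, on either strand (TTCAAA and ATTGG on the other strand).
PLK1, chr16:23678779-23678898, plus strand: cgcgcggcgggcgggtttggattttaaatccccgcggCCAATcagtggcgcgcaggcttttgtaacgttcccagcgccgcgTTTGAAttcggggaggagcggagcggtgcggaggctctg
CCNB2, chr15:59105036-59105155, plus strand: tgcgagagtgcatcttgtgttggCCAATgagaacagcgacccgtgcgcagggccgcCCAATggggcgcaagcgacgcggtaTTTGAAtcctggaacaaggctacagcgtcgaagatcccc
CDC20, chr1:43358871-43358990, plus strand: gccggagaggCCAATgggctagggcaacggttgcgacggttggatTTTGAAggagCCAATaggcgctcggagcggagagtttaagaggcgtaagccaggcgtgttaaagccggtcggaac
HMMR, chr5:163460522-163460641, plus strand: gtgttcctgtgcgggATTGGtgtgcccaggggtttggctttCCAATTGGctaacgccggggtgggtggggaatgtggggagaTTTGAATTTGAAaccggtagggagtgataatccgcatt
TOP2A, chr17:40417887-40418006, minus strand: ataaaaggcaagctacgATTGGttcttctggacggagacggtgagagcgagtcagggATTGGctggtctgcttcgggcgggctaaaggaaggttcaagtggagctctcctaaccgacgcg
KIF20A, chr5:138179002-138179121, plus strand: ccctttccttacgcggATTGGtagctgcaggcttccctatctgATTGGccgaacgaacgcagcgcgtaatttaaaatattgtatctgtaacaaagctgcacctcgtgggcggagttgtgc

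PLK1 and CCNB2 carried TTTGAA 29 bases before the start, downstream of 1 CCAAT box in PLK1 and 2 in CCNB2. HMMR had 2 TTTGAA copies side by side, and in CDC20 the element lay between 2 CCAAT boxes. The bases after the annotated start of CDC20 were not found in a GENCODE transcript, unlike those of the other genes shown, so its positions are less certain. In TOP2A and KIF20A the window shown held 2 CCAAT boxes each and no TTTGAA, and no match says only that these letters are not in this window. In the full 300 bases (250 before to 50 after the start), TTTGAA was found in 26 of the 37 promoters, 70.3%, against 15.4% of 27305 RefSeq promoters of the same length. The CCAAT box was found in 29 of 37, 78.4%, against 35.7%, and both motifs in 22 of 37, 59.5%, against 6.08%. Within the last 100 bases before the start both were found in 14 of 37, 37.8%, against 0.985% of all promoters. In the windows shown TTTGAA and CCAAT share no bases, while a CCAAT and an ATTGG share bases once in HMMR. With 6-thio-dG in LOX-IMVI BR the median log2 change was −2.46 over the 25 tested genes with TTTGAA in the 300 bases and −2.50 over the 11 without it. The same medians in A375 were −1.99 and −1.71 for 6-thio-dG. For BIBR1532 in A375 they were −1.46 and −0.47, with 12 of 25 and 2 of 11 genes called lower. In that comparison 7.29% of all genes and 10.3% of symbol-named genes were called lower. Its log2 changes also moved with the GC content of the transcript (Spearman rho 0.80 over the tested genes of the set). The part of GC in the split by motif was not tested. In LOX-IMVI BR with BIBR1532 the medians were 0.61 and 0.72. A match is a string of letters and not a measured binding site.

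The libraries held 11813388 to 25822381 counts. Levels are given in CPM, counts relative to the library's total after TMM scaling, with both library values of a group in place of a mean. The common biological coefficient of variation, the spread between replicates beyond counting error, was 25.8% over the 12 libraries, 36.1% among the A375 libraries alone and 4.55% among the LOX-IMVI BR libraries alone. Over the tested genes the LOX-IMVI BR controls differed little beyond counting error, with a median chi-square of 0.58 where counting error alone gives 0.455, and the A375 controls differed more, with 10.7. This chi-square used raw totals without TMM factors, so a scaling difference between libraries that the fit removes is part of it. The TMM factors were 0.878 and 0.898 in the LOX-IMVI BR controls and lay further apart in the A375 controls. Among the tested mitotic genes, in CPM after TMM scaling, A375 6-thio-dG replicate 1 was below replicate 2 in 29 of 43. A375 control replicate 1 was below replicate 2 in 35 of 43. The TMM factors of the A375 controls were 0.746 and 1.037. Without TMM scaling the set's share of raw counts was higher in control replicate 1, at 0.231% against 0.21%. SOX10, a defining factor of the melanocyte lineage, was at 512 and 590.4 CPM in the A375 controls but at 0.502 and 0.683 CPM in the LOX-IMVI BR controls, where TYR and DCT had no count. PMEL and MLANA were under 1 CPM in the controls of both lines. The 6 fibroblast markers summed to 8.75 to 8.78 CPM in the A375 controls and to 1827 to 1858 CPM in the LOX-IMVI BR controls. In LOX-IMVI BR most of this was COL1A1, with COL3A1 at 153.8 and 148.4 CPM and PDGFRA at 56.9 and 55.35 CPM. COL1A2, DCN and LUM were at 0.592 to 3.01 CPM there. In the A375 controls COL3A1 was at 1.2 and 1.45 CPM and PDGFRA at 0.935 and 0.543 CPM. PTPRC, CD3E, PECAM1, CDH5, EPCAM and CDH1, defining markers of leukocytes, endothelium and epithelium, were under 1 CPM in the controls. Of the same lists KRT5, KRT14, KRT15, VWF, KDR and CD68 were over 1 CPM in at least 1 control library. CD68, a macrophage marker, was highest, at 173.1 and 419.9 CPM in the A375 controls and 92.3 and 92.35 CPM in the LOX-IMVI BR controls. KRT15 was at 8.67 and 17.3 CPM in A375 and at 8.035 and 8.97 CPM in LOX-IMVI BR.

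The summed counts of the 44 genes, as shares of raw totals without TMM scaling, gave the first view. They made up 0.231% and 0.21% of all counts in the A375 controls, 0.0823% and 0.119% after 6-thio-dG, and 0.189% and 0.193% after BIBR1532. In LOX-IMVI BR they made up 0.568% and 0.572% in the controls, 0.151% and 0.162% after 6-thio-dG, and 0.866% and 0.906% after BIBR1532. The groups did not overlap within either line. Against the mean of the line's controls the share was 2.19-fold lower with 6-thio-dG in A375 and 3.64-fold lower in LOX-IMVI BR, and with BIBR1532 it was 1.15-fold lower in A375 and 1.55-fold higher in LOX-IMVI BR. In bulk RNA fewer cells in mitosis and less of these transcripts per cell cannot be told apart.

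**Figure D1:**
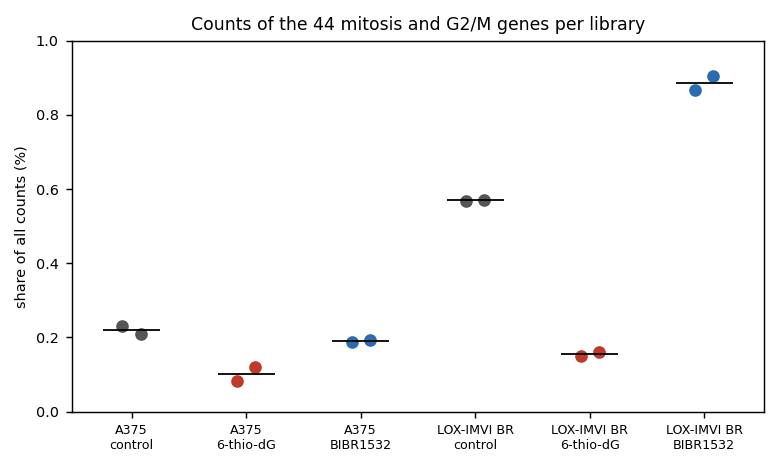
Share of all counts (%, vertical axis) that fell on the 44 mitosis and G2/M genes in each of the 12 libraries (points) and the mean of each group (lines). The lowest shares are those of the 6-thio-dG groups, 0.0823% to 0.162%, and the highest those of LOX-IMVI BR with BIBR1532, 0.866% and 0.906%.

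In LOX-IMVI BR treated with 6-thio-dG, nearly the whole set fell. By edgeR's quasi-likelihood test over the 12 libraries (adjusted p under 0.05 over all tested genes), 41 of 43 tested genes were lower and 0 were higher. Of all genes tested, 7.16% were called lower and 9.81% higher, and of the symbol-named genes 10.8% were called lower. The median log2 change of the mitotic genes was −2.38, against 0.05 for all tested genes and −0.13 for symbol-named ones. The 2 genes not called were BUB3 and CDCA3. Fitted on the LOX-IMVI BR libraries alone, where the spread was smaller and 30.8% of all genes were called lower, 42 fell.

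All but 1 of the mitotic entry genes fell. PLK1, the Polo-like kinase of mitotic entry and spindle assembly, measured 238 CPM in both control libraries and 15.2 and 16.7 CPM with 6-thio-dG, a 14.9-fold fall (log2 change −3.90 ± 0.31 SE, edgeR adjusted p = 4.61e-06). CCNB1, cyclin B1, the partner of CDK1, went from 156 and 147 CPM to 13.3 and 14.3 CPM, 11-fold lower (log2 −3.46 ± 0.32 SE, edgeR adjusted p = 1.45e-05). The kinase subunit CDK1 itself moved less, from 122 and 124 to 36.7 and 35.6 CPM, 3.41-fold (edgeR adjusted p = 0.0324). CCNA2, cyclin A2 of S phase and early mitosis, fell 5.66-fold, from 139 and 132 to 22.2 and 25.7 CPM. AURKA, the centrosomal Aurora kinase, fell 6.76-fold, from 126 and 124 to 19.2 and 17.8 CPM. CDC25B, a phosphatase that activates CDK1, fell 4.47-fold, from 241 CPM in both libraries to 53.2 and 54.6 CPM. In each of these the treated libraries lay far below the controls and the replicates lay close together. CDCA3, a mitotic entry factor with 5 to 19 counts in a library, was at 0.502 and 0.592 CPM without and 0.722 and 0.655 CPM with 6-thio-dG (log2 0.32 ± 0.52 SE, edgeR adjusted p = 0.742).

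Among the 5 checkpoint genes 4 fell. BUB1B, the BubR1 subunit of the mitotic checkpoint complex, measured 45.5 and 45.2 CPM in control libraries and 8.98 and 9.28 CPM with 6-thio-dG, a 4.97-fold fall (log2 −2.31 ± 0.43 SE, edgeR adjusted p = 0.0023). TTK, the MPS1 kinase that starts checkpoint signalling, fell 3.9-fold, from 56.1 and 51.8 to 13.6 and 14 CPM (edgeR adjusted p = 0.021). BUB3, the WD-repeat partner of BUB1 and BubR1, stood apart from them at 368 and 356 against 279 and 274 CPM (log2 −0.39 ± 0.29 SE, edgeR adjusted p = 0.413). Its treated libraries were still below both controls, and in the LOX-IMVI BR libraries alone its fall passed the test (edgeR adjusted p = 1.04e-07).

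The 4 chromosomal passenger genes all fell, by 2.94 to 5.21-fold. AURKB, the kinase of the complex, went from 105 and 103 to 24.9 and 29.5 CPM (log2 −1.94 ± 0.30 SE, edgeR adjusted p = 5.91e-04). BIRC5, survivin, its targeting subunit, went from 66.5 and 68.1 to 12.8 and 14.9 CPM, 4.86-fold lower (edgeR adjusted p = 0.00123). INCENP, the scaffold of the complex, fell least of the 4, from 143 and 148 to 46.9 and 52.3 CPM.

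Of the 6 centromere and kinetochore genes 5 were tested, and all 5 fell. CENPE, the kinetochore kinesin of chromosome congression, went from 55.3 and 56.1 to 10.2 and 11.9 CPM, 5.04-fold lower (edgeR adjusted p = 0.0282). CENPF, a large kinetochore and spindle protein of G2 and mitosis, went from 423 and 425 to 72.1 and 81.9 CPM, 5.51-fold lower (edgeR adjusted p = 0.0323). NDC80, of the complex that binds microtubule ends, went from 25.7 and 22.9 to 5.01 and 4.83 CPM, 4.93-fold lower (edgeR adjusted p = 0.00505). CENPA, the centromeric histone H3 variant, could not be followed: it had 1 count in each of 2 libraries and was listed at 0 in the other 10, where a count of 0 allows up to 0.116 to 0.254 CPM by library depth (counting error only). Other genes of the cell cycle were as low, with CKS1B, a CDK subunit, and CDKN3, a CDK phosphatase, at 0 to 2 counts in every library, so a level near 0 of CENPA or CDCA3 is not read as absence of the transcript, and whether their reads were counted was not tested.

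All 4 genes of anaphase and mitotic exit fell. CDC20, the activator of the anaphase promoting complex and target of the checkpoint, went from 309 and 306 to 39.7 and 45.9 CPM, 7.18-fold lower (log2 −2.84 ± 0.36 SE, edgeR adjusted p = 1.55e-04). UBE2C, the ubiquitin-conjugating enzyme of that complex, went from 166 and 168 to 26.8 and 29.4 CPM, 5.94-fold lower (edgeR adjusted p = 4.79e-05). PTTG1, securin, which holds separase inactive, fell 4.19-fold, from 34.1 and 33.9 to 7.98 and 8.24 CPM (edgeR adjusted p = 6.91e-04). PTTG1 has near-identical copies elsewhere in the genome, so its level is uncertain.

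All 12 spindle and cytokinesis genes fell, and this group held the largest fall of the set. KIF20A, a kinesin of the central spindle, measured 208 and 206 CPM in control libraries and 12.3 and 14.7 CPM with 6-thio-dG, 15.3-fold lower (log2 −3.94 ± 0.31 SE, edgeR adjusted p = 4.61e-06). DLGAP5, a spindle assembly factor, followed PLK1 as the third largest fall, from 57.5 and 50.8 to 4.37 and 4.62 CPM, 12-fold (edgeR adjusted p = 0.00158). KIF11, the motor that pushes spindle poles apart, fell 6.12-fold, from 95.8 and 91.8 to 14 and 16.7 CPM. ANLN, anillin of the cleavage furrow, fell 7.53-fold, from 201 and 196 to 25.6 and 27.1 CPM. The smallest fall of this group was that of NUSAP1, a spindle-binding protein, at 3.82-fold.

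The 3 transcription and chromatin genes fell as well. TOP2A, topoisomerase II alpha, which untangles sister chromatids, measured 805 and 773 CPM in control libraries and 66.2 and 71.4 CPM with 6-thio-dG, 11.5-fold lower (log2 −3.52 ± 0.63 SE, edgeR adjusted p = 0.00194). FOXM1, the transcription factor of G2 genes, fell 4.69-fold, from 84.3 and 84.4 to 16.5 and 19.4 CPM. MKI67, the Ki-67 coat protein of mitotic chromosomes, fell 4.0-fold, from 715 and 732 to 159 and 203 CPM (edgeR adjusted p = 0.0323). It was not called in the GC-corrected fit (edgeR adjusted p = 0.0548), which also left out all genes not named by a symbol. The summed fibroblast markers moved with this treatment, from 1827 to 1858 CPM in the controls to 24.2 to 26.8 CPM, and their part in the result was not tested.

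**Figure D2:**
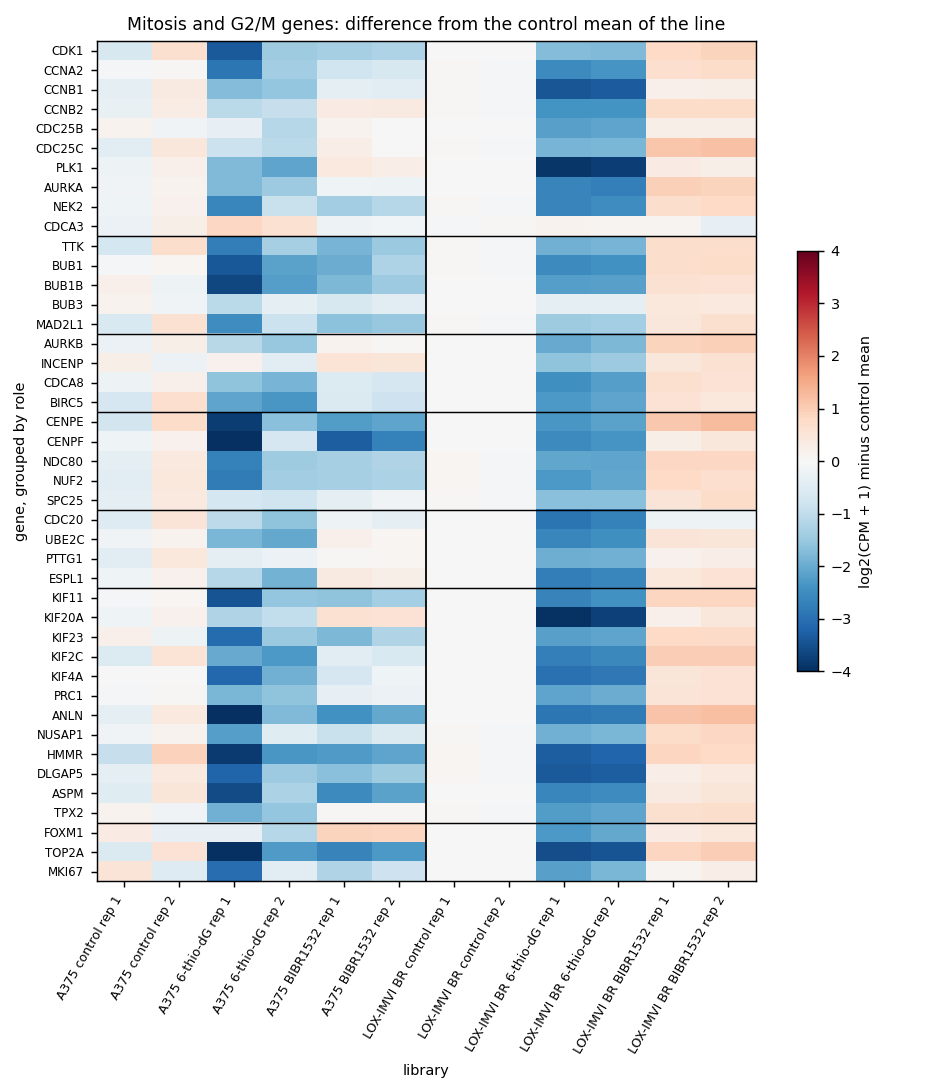
Difference of log2(CPM + 1) from the mean of the line's controls (color) for the 43 tested genes (rows, grouped by role) in the 12 libraries (columns). The 6-thio-dG columns of LOX-IMVI BR are low in 42 of 43 rows and alike, and A375 6-thio-dG replicate 1 is far lower than replicate 2 for genes such as CENPF and TOP2A.

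In A375 treated with 6-thio-dG, 34 of 43 tested genes fell and 1, CDCA3, rose, against 8.21% of all genes called lower and 9.86% called higher, and 12.9% of the symbol-named genes called lower. The median log2 change was −1.76, against 0.03 for all tested genes and −0.25 for symbol-named ones. In 38 of 43 genes both treated libraries lay below both controls, as in 20.5% of all genes tested. The call count differed between fits: on the A375 libraries alone 14 fell, where 2.02% of all genes were called lower, and without control replicate 2 it was 22. The median in the A375 libraries alone was −1.73. The 14 genes were CCNB1, PLK1, AURKA, BUB1, BUB1B, CDCA8, BIRC5, UBE2C, KIF2C, KIF4A, PRC1, HMMR, TOP2A and TPX2. The other genes called lower, among them CCNA2, TTK, AURKB, CENPE, NDC80, CDC20, KIF11 and ANLN, did not pass on the A375 libraries alone. CD68, a macrophage marker, measured 173.1 and 419.9 CPM untreated and 984 and 732 CPM with 6-thio-dG. LYZ, of the same leukocyte list, went from 0.93 and 0.91 to 3.675 and 5.91 CPM, while PTPRC and CD3E stayed under 1 CPM. Of the tested markers 2 of 4 leukocyte, 2 of 3 endothelial, 1 of 6 fibroblast and 0 of 4 epithelial ones were called higher, and 0 of these lists lower. The part of these markers in the result was not tested.

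Mitotic entry genes fell in 8 of 10. PLK1 went from 65.7 and 86.9 CPM in the controls to 21.7 and 16.6 CPM, 3.98-fold lower (log2 −1.99 ± 0.29 SE, edgeR adjusted p = 5.99e-04; 0.0246 in the A375 libraries alone). CCNB1 went from 48.3 and 80.0 to 18 and 20.6 CPM, 3.31-fold lower (edgeR adjusted p = 0.00205). AURKA fell 3.14-fold, from 53.7 and 66.2 to 16.8 and 21.4 CPM (edgeR adjusted p = 0.00167). In these 3 genes the treated libraries lay close together and well under the controls. CDK1 measured 26.2 and 65 CPM in control libraries and 3.17 and 15 CPM with 6-thio-dG, 4.97-fold lower, with a wide gap inside each group (edgeR adjusted p = 0.0113; 0.0785 in the A375 libraries alone). CCNA2 fell 4.18-fold, from 37.6 and 40.4 to 4.43 and 14.1 CPM (edgeR adjusted p = 0.00414). CDC25B, at 243 and 200.3 against 176 and 98.6 CPM, did not pass (log2 −0.69 ± 0.30 SE, edgeR adjusted p = 0.119). CDCA3 rose from 0.224 and 0.724 to 1.59 and 1.21 CPM (log2 1.79 ± 0.57 SE, edgeR adjusted p = 0.0406), on 5 to 19 counts a library, so few that its level is uncertain. Fitted within A375 it did not pass (edgeR adjusted p = 0.135).

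Checkpoint genes fell in 4 of 5, and BUB1B by more than most. It measured 34.8 and 26.2 CPM in control libraries and 1.5 and 5.78 CPM with 6-thio-dG, 8.26-fold lower (log2 −3.05 ± 0.46 SE, edgeR adjusted p = 7.85e-04). TTK fell 5.54-fold, from 5.35 and 15.5 to 0.501 and 3.09 CPM (edgeR adjusted p = 0.0126). As in the other line BUB3 was not called, at 233 and 194 against 100.1 and 167 CPM (log2 −0.67 ± 0.29 SE, edgeR adjusted p = 0.118). Chromosomal passenger genes fell in 3 of 4. AURKB fell 2.54-fold, from 68.6 and 94.7 to 36.9 and 27.3 CPM, and BIRC5 fell 5.47-fold, from 33.8 and 87.4 to 11.9 and 10.1 CPM (edgeR adjusted p = 0.00696 and 0.00119). INCENP, at 72.7 and 52.2 against 69.2 and 44.4 CPM, had overlapping groups (edgeR adjusted p = 0.779).

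Kinetochore genes fell in 4 of the 5 tested. CENPE went from 8.75 and 25.7 to 0.167 and 4.1 CPM, 7.74-fold lower (log2 −2.95 ± 0.74 SE, edgeR adjusted p = 0.0149), and NDC80 from 4.79 and 8.96 to 0.167 and 1.81 CPM, 6.5-fold lower (edgeR adjusted p = 0.0058). CENPF, with control values of 62.4 and 80.1 CPM against 2.76 and 43.8 CPM, was not called, and its treated libraries differed from each other far more than the controls did (edgeR adjusted p = 0.132). Of the exit genes 3 of 4 fell. CDC20 fell 2.63-fold, from 101 and 211 to 70.8 and 47.8 CPM (edgeR adjusted p = 0.0131). UBE2C fell 3.93-fold, from 82.4 and 101 to 25.1 and 21.5 CPM (log2 −1.97 ± 0.28 SE, edgeR adjusted p = 5.09e-04). Securin, PTTG1, did not pass at 20.5 and 38 against 21.8 and 23.6 CPM (edgeR adjusted p = 0.44), and its groups overlapped.

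Spindle and cytokinesis genes fell in 11 of 12, and the largest fall was that of HMMR, a hyaluronan receptor that also binds spindle poles. It went from 11.5 and 44.6 CPM in the controls to 0.668 and 3.76 CPM, 12.2-fold lower (log2 −3.62 ± 0.65 SE, edgeR adjusted p = 0.00268), and the libraries of both groups differed widely from each other. KIF11 fell 5.24-fold, from 26.3 and 28.9 to 1.59 and 8.8 CPM (edgeR adjusted p = 0.00629). KIF20A, the largest fall of LOX-IMVI BR, fell 2.21-fold here, from 28.7 and 36.3 to 13.4 and 15.9 CPM (edgeR adjusted p = 0.0136; 0.151 in the A375 libraries alone). ANLN fell 6.41-fold, from 38.1 and 67.5 to 2.17 and 14.1 CPM (edgeR adjusted p = 0.00701). NUSAP1, at 23.4 and 29.1 against 4.93 and 18.4 CPM, was the member of this group that was not called (edgeR adjusted p = 0.0784). Of the last role group only TOP2A was called, 9.22-fold lower, from 90.3 and 201 to 4.01 and 27.4 CPM (log2 −3.21 ± 0.63 SE, edgeR adjusted p = 0.00414). FOXM1, at 31.3 and 19.1 against 19.1 and 10.5 CPM, and MKI67, at 138 and 67.4 against 10.8 and 71.7 CPM, had overlapping groups (edgeR adjusted p = 0.126 and 0.13). KIF4A, called lower in both lines with 6-thio-dG, has the near-identical copy KIF4B, so its level is uncertain.

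**Figure D3:**
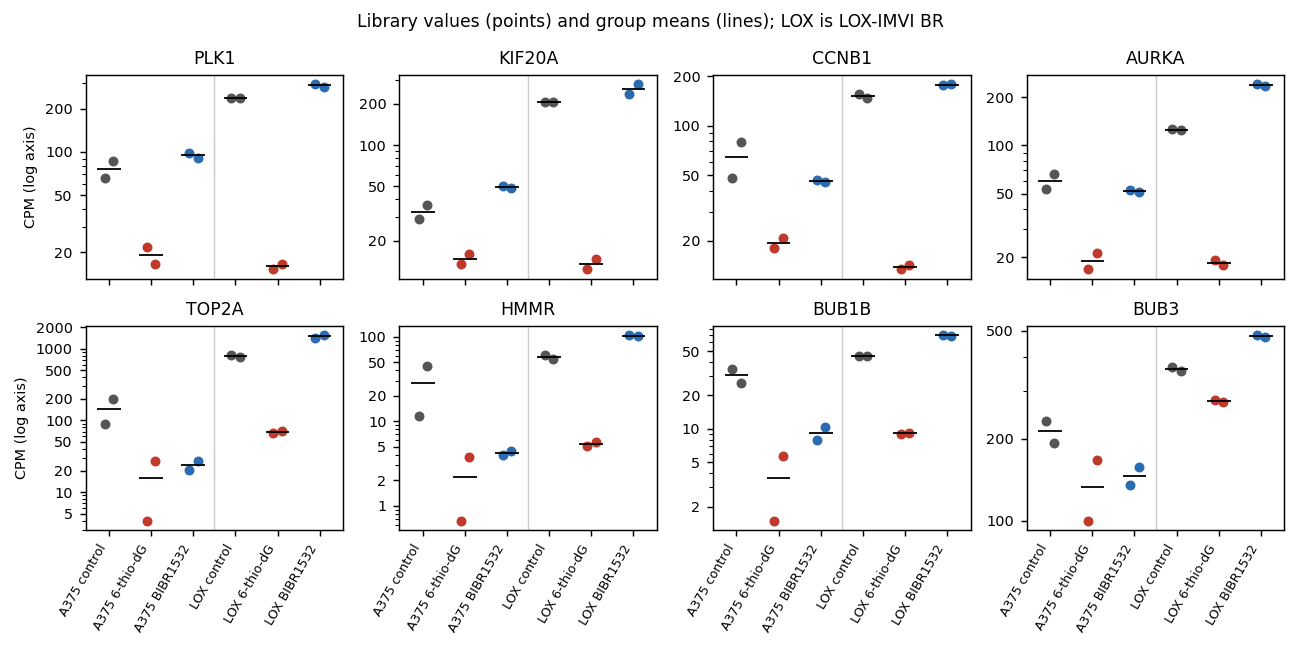
Library values in CPM (points, log axis) and group means (lines) of 8 genes in the 6 groups. PLK1, KIF20A, CCNB1 and AURKA are low and tight with 6-thio-dG in both lines, TOP2A, HMMR and BUB1B differ widely between the A375 6-thio-dG libraries, and BUB3 moves least.

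The 34 genes called lower in A375 with 6-thio-dG were all among the 41 called lower in LOX-IMVI BR. This is 100% of the A375 list and 82.9% of the LOX-IMVI BR list. With 41 of the 43 tested genes called in LOX-IMVI BR, nearly all of any list of these genes would be among them. The overlap therefore says little of its own about the lines. The lines share no libraries, but both lists came from the same fit with a shared estimate of the spread. Across the 43 genes the log2 changes of the lines had a Spearman rho of 0.45 and a Pearson r of 0.61, given as a description because genes of a fit share its libraries. In 33 of 43 genes the log2 change was lower in LOX-IMVI BR than in A375, among them CDCA3, whose log2 changes were above 0 in both. The test of the difference between the lines called 4 genes, each with the larger fall in LOX-IMVI BR, against 3.06% of all genes called in that direction and 2.48% in the other. KIF20A differed most, by −2.79 ± 0.40 SE on the log2 scale (edgeR adjusted p = 0.00108). PLK1 differed by −1.90 ± 0.40 (edgeR adjusted p = 0.0121), CCNB1 by −1.73 ± 0.42 (0.0268) and PTTG1 by −1.71 ± 0.44 (0.0364). These 4 genes had adjusted p of 1.32e-04 to 0.00784 after GC correction, by edgeR. No checkpoint gene was called by this test, and the median log2 difference was 0.40 for checkpoint and −1.28 for mitotic entry genes. Over the 43 genes the difference moved with transcript GC (Spearman rho −0.64, and −0.35 after GC correction). All symbol-named genes had a median difference of 0.48 under 43.2% GC and −0.02 above it. The part of GC in the split by role was not tested. The count of 4 moved between 1 and 21 when single libraries were left out: it was 1 without any one LOX-IMVI BR library, 8 to 10 without A375 control replicate 1, control replicate 2 or 6-thio-dG replicate 1, and 11 lower and 10 higher without A375 6-thio-dG replicate 2.

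GC content of the transcript moved with the A375 changes. The tested genes ranged from 35.3% to 59.6% GC in the longest coding transcript, with a median of 43.2%. In A375 6-thio-dG replicate 1 lay below replicate 2 in 20 of the 21 genes under that median, by a median of 1.63 on the log2 scale, and in 9 of the 22 others. In A375 the Spearman rho of GC with the log2 change was 0.58 for 6-thio-dG and 0.80 for BIBR1532. In LOX-IMVI BR it was 0.09 and −0.46. All symbol-named genes shared part of this: in A375 with BIBR1532 those under 43.2% GC had a median of −0.91 and those above it 0.06. After a GC trend was removed from each library, rho was 0.30 and 0.51 in A375, and 32 of the 35 calls with 6-thio-dG and 12 of the 15 with BIBR1532 were kept, while 2 and 5 calls were gained. The GC-corrected fit also left out genes with no GC value, among them all genes not named by a symbol. Calls lost or gained in it can come from either change, and these were not told apart. How far GC enters the A375 values beyond that was not tested.

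**Figure D4:**
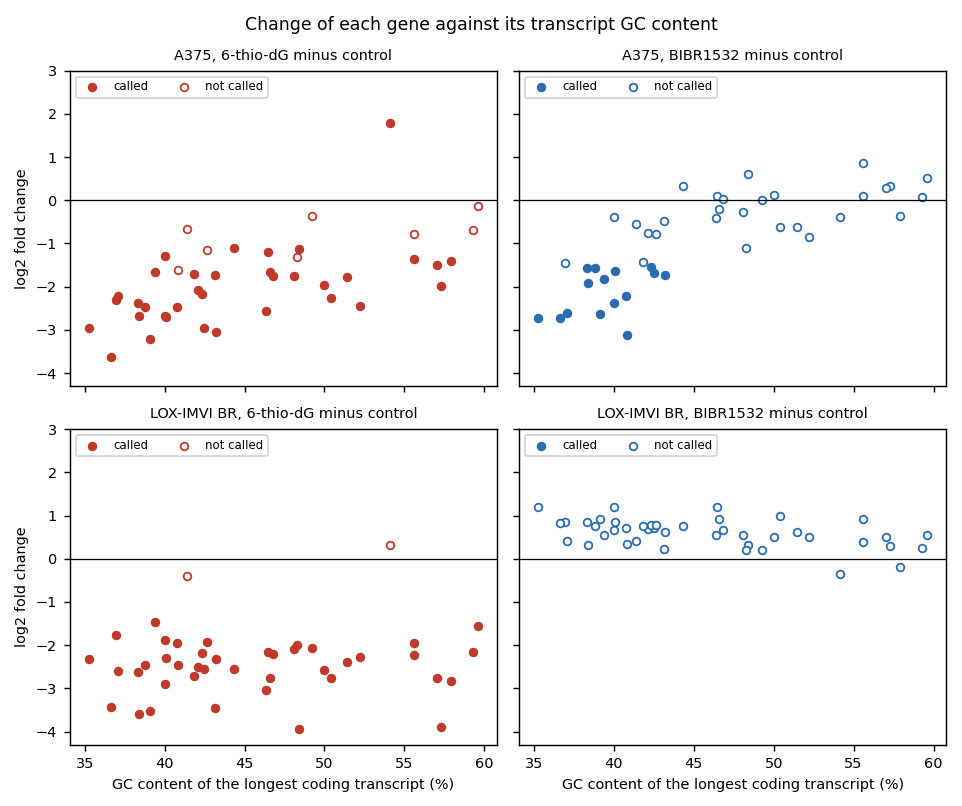
Log2 fold change (vertical axis) of the 43 tested genes against the GC content (%) of the longest coding transcript, in the 4 comparisons with control (filled points were called by edgeR). In A375 with BIBR1532 14 of the 15 called genes sit below the median GC of 43.2%, while in LOX-IMVI BR with 6-thio-dG the Spearman rho of the changes with GC is 0.09.

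In A375 treated with BIBR1532, 15 of 43 genes fell and 0 rose, against 7.29% of all genes called lower and 8.49% called higher, and 10.3% of symbol-named genes called lower. The falls were in 4 of 5 checkpoint, 4 of 5 kinetochore, 6 of 12 spindle and cytokinesis genes and TOP2A. Without GC correction no gene of mitotic entry, the passenger complex or mitotic exit was called. Of the 21 genes under the median GC 14 fell, and of the 22 others 1 did. After GC correction these were 12 and 5: NDC80, NUF2 and DLGAP5 lost the call, and NEK2, a centrosomal kinase of mitotic entry, the passenger subunits CDCA8 and BIRC5, and KIF2C and PRC1 of the spindle were called lower (edgeR adjusted p of 0.00187 to 0.0277). The role and GC split of the calls thus differed between these fits. The GC-corrected fit also left out all genes not named by a symbol. With symbol-named genes only and no GC correction, 7 of the 15 calls were lost. All 15 calls were lost on the A375 libraries alone, where 0.558% of all genes were called lower, and without either BIBR1532 library, and 1 was left without control replicate 2. The epithelial markers, mostly KRT15, summed to 15.6 to 27.2 CPM in the controls and 100.5 to 103 CPM with BIBR1532 with EPCAM and CDH1 under 1 CPM. CD68 was at 632 and 576 CPM after 173.1 and 419.9 CPM untreated. Of the tested markers 1 of 4 epithelial, 1 of 4 leukocyte, 2 of 3 endothelial and 1 of 6 fibroblast ones were called higher, and 0 of these lists lower. The part of these markers in the result was not tested.

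CENPF was at 62.4 and 80.1 CPM in the A375 controls and at 6.32 and 10.1 CPM with BIBR1532, the largest fall (log2 −3.11 ± 0.76 SE, 8.66-fold, edgeR adjusted p = 0.0161). CENPE went from 8.75 and 25.7 to 2.42 and 2.71 CPM, 6.63-fold lower (edgeR adjusted p = 0.0213). HMMR went from 11.5 and 44.6 to 3.95 and 4.51 CPM, 6.58-fold lower (edgeR adjusted p = 0.0107). The treated libraries of these genes were close together, while the controls of CENPE and HMMR differed. TOP2A fell 6.18-fold, from 90.3 and 201 to 20.3 and 26.9 CPM (edgeR adjusted p = 0.0124), and ANLN 5.2-fold, from 38.1 and 67.5 to 8.61 and 11.6 CPM (edgeR adjusted p = 0.0139). BUB1B fell 3.3-fold, from 34.8 and 26.2 to 8.03 and 10.5 CPM, and TTK 4.64-fold, from 5.35 and 15.5 to 1.79 and 2.62 CPM (edgeR adjusted p = 0.0161 and 0.0205). NDC80 fell 3.11-fold and KIF11 2.99-fold (edgeR adjusted p = 0.0417 and 0.0406). NDC80 lost its call after GC correction (edgeR adjusted p = 0.0769).

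Entry and exit genes were not called with BIBR1532 in A375 without GC correction, and their values lay on either side of the controls. PLK1 was at 98.8 and 91.4 CPM beside 65.7 and 86.9 CPM in the controls (log2 0.32 ± 0.28 SE, edgeR adjusted p = 0.457). CCNB1 was at 46.9 and 45.4 CPM beside 48.3 and 80.0 CPM and AURKA at 52.4 and 51.5 CPM beside 53.7 and 66.2 CPM (edgeR adjusted p = 0.288 and 0.639). CDC20 had overlapping groups at 127 and 115 against 101 and 211 CPM, and so had UBE2C at 105 and 96.5 against 82.4 and 101 CPM (edgeR adjusted p = 0.479 and 0.766). CDK1, at 16 and 17 CPM, and CCNA2, at 21.8 and 24.5 CPM, were below both controls without passing (log2 −1.46 ± 0.53 and −0.75 ± 0.39 SE, edgeR adjusted p = 0.0715 and 0.201). FOXM1 was above both controls at 46.3 and 45.3 CPM (log2 0.86 ± 0.34 SE, edgeR adjusted p = 0.094). The other followed genes, CDC25B, BUB3, AURKB, BIRC5, PTTG1, MKI67 and KIF20A, had log2 changes from −1.10 to 0.60 and adjusted p of 0.125 to 0.999 by edgeR.

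In LOX-IMVI BR treated with BIBR1532, no gene of the set was called by edgeR over the 12 libraries, in either direction, where 0.690% of all genes were called lower and 2.90% higher, and 3.03% of symbol-named genes higher. At an unadjusted p under 0.05 there were 8 higher and 0 lower, beside 10.1% of all genes higher and 5.34% lower at that threshold. In 41 of 43 genes both treated libraries lay above both controls, as in 35.1% of all genes tested and 42.3% of symbol-named ones. The median log2 change was 0.62, against 0.04 for all tested genes. The calls differed between fits. On the LOX-IMVI BR libraries alone, with a spread of 4.55% and 24087 genes tested, 39 rose and 1, CDC20, fell, where 23.1% of all genes were called higher and 21.8% lower. With limma voom and a weight for each group 37 were higher, and the DESeq2 test called 3 higher. The share of all genes called was not counted in these fits, so these counts have no background beside them. Epithelial markers summed to 11.9 to 12.8 CPM in these controls and 73.3 to 75.5 CPM with BIBR1532, and CD68 was at 92.3 and 92.4 against 209.5 and 222 CPM, and their part in the result was not tested.

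The largest differences were in CDC25C, another CDK1-activating phosphatase, with 13.8 and 12.7 CPM in untreated and 29.7 and 31.2 CPM in treated libraries (log2 1.20 ± 0.33 SE, edgeR adjusted p = 0.0564; 1.69e-11 in the LOX-IMVI BR libraries alone). CENPE was at 55.3 and 56.1 against 119.9 and 135 CPM and ANLN at 201 and 196 against 443 and 462 CPM (log2 1.19 ± 0.65 and 1.19 ± 0.54 SE). The fitted levels of these 3 genes were 2.28 to 2.31-fold those of the controls, with replicates close together. AURKA was at 126 and 124 against 242 and 235 CPM and AURKB at 105 and 103 against 192 and 201 CPM (edgeR adjusted p = 0.0769 and 0.103). After GC correction these and TPX2, the activator of AURKA on the spindle, passed (0.014, 0.00367 and 0.0401). TOP2A was at 805 and 773 against 1431 and 1553 CPM and CDK1 at 122 and 124 against 215 and 229.8 CPM (edgeR adjusted p = 0.503 and 0.483). PLK1, at 238 CPM in both libraries against 298 and 284 CPM, and CCNB1, at 156 and 147 against 176 and 179 CPM, differed by 1.22-fold and 1.17-fold. CDC20 went the other way, from 309 and 306 to 266 and 269 CPM (log2 −0.20 ± 0.34 SE, edgeR adjusted p = 0.869; 2.52e-04 in the LOX-IMVI BR libraries alone). The followed genes CCNA2, CDC25B, TTK, BUB1B, BUB3, BIRC5, CENPF, NDC80, UBE2C, PTTG1, KIF11, KIF20A, FOXM1 and MKI67 had log2 differences from 0.20 to 0.86.

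**Figure D5:**
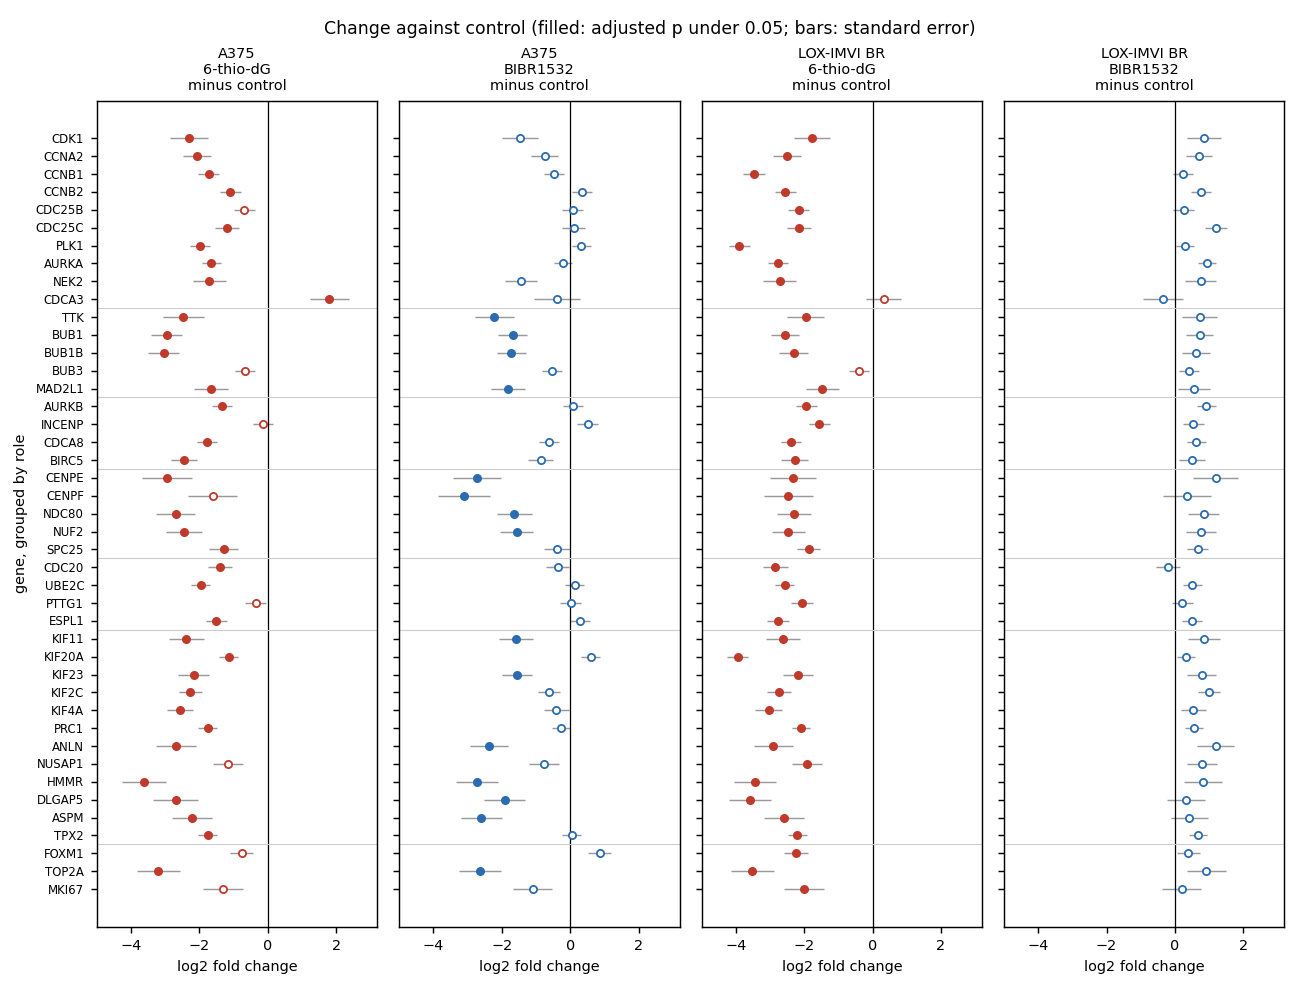
Log2 fold change against the control of the same line (horizontal axis) with its standard error (bars) for the 43 tested genes, grouped by role, in 4 comparisons. Filled points passed an adjusted p of 0.05 by edgeR. The counts of filled points are 35, 15, 41 and 0 from left to right.

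The effect of BIBR1532 differed between the lines in 7 genes, each higher in LOX-IMVI BR relative to A375, against 2.09% of all genes called in that direction and 1.55% in the other. They were ANLN (log2 difference 3.57 ± 0.78 SE, edgeR adjusted p = 0.0245), CENPE (3.92 ± 0.96), HMMR (3.55 ± 0.83), TOP2A (3.55 ± 0.83), BUB1 (2.39 ± 0.58), BUB1B (2.33 ± 0.59) and KIF23 (2.33 ± 0.61). Their edgeR adjusted p ran from 0.0245 to 0.0476. BUB1 is the checkpoint kinase at kinetochores and KIF23 a motor of the central spindle. Of these 7 genes 6 were under the median GC, and the median difference was 2.37 over the genes under it and 0.52 over the others, where all symbol-named genes had 1.18 and 0.00. The count was 0 without any one of 7 of the 8 libraries in this test, and 15 without A375 control replicate 1. It was also 0 when the fit held only symbol-named genes.

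Between the compounds, whose doses differ (5 and 25 µM), the libraries of the treated groups were compared without the controls. In LOX-IMVI BR 41 of 43 genes were lower with 6-thio-dG than with BIBR1532, where 10.7% of all genes were called lower and 9.90% higher. In the LOX-IMVI BR libraries alone it was 42, where 33.0% of all genes were lower. TOP2A differed most, at 66.2 and 71.4 against 1431 and 1553 CPM, 21.7-fold (log2 −4.44 ± 0.66 SE, edgeR adjusted p = 3.75e-04), then HMMR, at 5.05 and 5.62 against 105 and 101 CPM, and KIF20A, at 12.3 and 14.7 against 236 and 281 CPM. In A375 17 of 43 were lower with 6-thio-dG and CDCA3 was higher, where 8.76% of all genes were called lower and 7.26% higher. PLK1 differed most, at 21.7 and 16.6 against 98.8 and 91.4 CPM, 4.97-fold (log2 −2.31 ± 0.29 SE, edgeR adjusted p = 1.41e-04). KIF4A followed, at 3.67 and 9.67 against 24.8 and 35 CPM, and UBE2C, at 25.1 and 21.5 against 105 and 96.5 CPM (edgeR adjusted p = 0.00188 and 1.97e-04). By role, 6 of the 10 mitotic entry genes and 0 of the 5 checkpoint and 0 of the 5 kinetochore genes were called lower. Of the 21 genes under the median GC 2 were called lower and of the 22 others 15, and after GC correction 6 and 17. The Spearman rho of GC with this log2 difference was −0.47. All symbol-named genes had a median of 0.23 under that GC and −0.11 above it. The part of GC in the split by role was not tested. BUB1B, at 1.5 and 5.78 against 8.03 and 10.5 CPM, missed the threshold (log2 −1.32 ± 0.44 SE, edgeR adjusted p = 0.0541). On the A375 libraries alone the count was 7, where 4.10% of all genes were called lower, and without A375 6-thio-dG replicate 2 it was 34 lower and 1 higher.

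Untreated LOX-IMVI BR had higher levels of most of the set than untreated A375, on counts scaled to each library. Of 43 genes 29 were higher and 1, KIF2C, was lower, where 21.1% of all genes were called higher and 28.8% lower. The median log2 difference was 1.22. Without A375 control replicate 1 the calls were 16 higher and 1 lower. SPC25, a subunit of the NDC80 complex, differed most, at 1.53 and 3.26 CPM in A375 and 17.3 and 16.1 CPM in LOX-IMVI BR, 7.28-fold (log2 2.86 ± 0.36 SE, edgeR adjusted p = 1.45e-05). MKI67 followed, at 138 and 67.4 against 715 and 732 CPM, then KIF20A, at 28.7 and 36.3 against 208 and 206 CPM (7.02-fold and 6.37-fold). FOXM1 was 3.33-fold higher and PLK1 3.13-fold higher (edgeR adjusted p = 7.35e-04 and 2.32e-04). KIF2C, the microtubule-depolymerizing kinesin of centromeres, was at 113 and 237 in A375 and 91.6 and 95.2 CPM in LOX-IMVI BR (log2 −0.90 ± 0.33 SE, edgeR adjusted p = 0.034). After GC correction KIF2C lost its call (edgeR adjusted p = 0.523). AURKB, BIRC5, BUB1B, CDC25B and PTTG1 were not called (edgeR adjusted p of 0.259 to 0.757). Scaled per kilobase of transcript, UBE2C was the highest in both controls, at 100.3 CPM per kb in A375 and 183 CPM per kb in LOX-IMVI BR, followed by CDC20 at 88 and 172.9 CPM per kb. The third was AURKB in A375, at 65.1 CPM per kb, and TOP2A in LOX-IMVI BR, at 137 CPM per kb.

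Other genes of the pathway were counted by list. With 6-thio-dG in LOX-IMVI BR, where 7.16% of all genes and 10.8% of symbol-named genes were called lower, 10 of 31 other kinetochore genes fell, 8 of 21 condensin and cohesin genes, 3 of 15 genes of the anaphase promoting complex, and 15 of 26 other motor, centrosome and cytokinesis genes, with no rise in these lists. Of 17 other G2/M regulators 10 fell and 1, PLK3, rose. GTSE1, a regulator of p53 in G2, had log2 −2.77 and NCAPD2, a condensin subunit, log2 −2.57 (edgeR adjusted p = 7.32e-05 and 6.45e-05). Of 11 DREAM and B-MYB genes 3 fell, among them MYBL2, B-MYB itself (log2 −1.2, edgeR adjusted p = 0.0104). In A375 with 6-thio-dG, where 8.21% of all genes and 12.9% of symbol-named genes were called lower, the falls were 12 of 31 with 1 rise, 7 of 21, 6 of 15, 16 of 26, 7 of 17 with 1 rise, and 5 of 11 for the same lists in that order. On the A375 libraries alone these falls were 2, 1, 0, 1, 0 and 1, where 2.02% of all genes were called lower. BIBR1532 in A375, where 7.29% of all genes and 10.3% of symbol-named genes were called lower and 8.49% of all genes higher, lowered 8 of 31, 8 of 21, 2 of 15, 10 of 26, 3 of 17 and 3 of 11, and raised 1, 0, 0, 1, 0 and 2. All of these were lost on the A375 libraries alone apart from 2 falls and 1 rise among the motor and cytokinesis genes. In that fit 0.558% of all genes were called lower. Over the 12 libraries the shares of the anaphase promoting complex, 2 of 15, and of the G2/M regulators, 3 of 17, were near the background of that fit. In LOX-IMVI BR with BIBR1532, where 2.90% of all genes were called higher, the calls in these lists were 2 rises. They were of KIF24, a kinesin of centrioles (log2 1.13), and PLK2, a stress-responsive Polo-like kinase (log2 1.90). On the LOX-IMVI BR libraries alone 20, 11, 6, 24, 11 and 6 genes of the same lists in that order rose with BIBR1532, where 23.1% of all genes did. In these lists 3, 2, 4, 0, 0 and 0 fell, where 21.8% of all genes did. With 6-thio-dG in that fit 25, 17, 11, 24, 13 and 9 fell, where 30.8% of all genes did, and 0, 1, 1, 0, 1 and 1 rose.

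Of 10 genes of p53 and stress linked to G2 arrest, 3 rose and 1 fell in LOX-IMVI BR with 6-thio-dG, where 9.81% of all genes were called higher and 7.16% lower. CDKN1A, the p21 inhibitor of cyclin-dependent kinases, went from 54.6 and 51.3 CPM in the controls to 276 and 268 CPM with 6-thio-dG (log2 2.36 ± 0.35 SE, edgeR adjusted p = 4.96e-04). With BIBR1532 it was at 95.5 and 111 CPM (log2 0.96 ± 0.34 SE, edgeR adjusted p = 0.154; 3.14e-13 in the LOX-IMVI BR libraries alone). GADD45A, a stress gene that acts on CDK1 with cyclin B, rose in LOX-IMVI BR with both compounds (log2 2.29 and 3.65, edgeR adjusted p = 1.86e-04 and 4.40e-05). In A375 with 6-thio-dG 3 rose and 2 fell, where 9.86% of all genes were called higher and 8.21% lower, and GADD45A was among those that fell (log2 −1.5, edgeR adjusted p = 0.00353). CDKN1A in A375 was at 179 and 350.0 CPM in the controls, at 946 and 573 CPM with 6-thio-dG and at 652 and 592 CPM with BIBR1532 (edgeR adjusted p = 0.00829 and 0.0256). Both A375 calls of CDKN1A were lost on the A375 libraries alone (0.0726 and 0.149).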

How the data were processed

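RNA was measured by sequencing in 12 libraries. The values are whole-number counts per gene as deposited by the authors, not normalized. STAR, Picard, GATK and featureCounts 1.5.1 with hg19 and GRCh37 are named, with no role or order, per the submitters' processing notes. The kit does not mark strand, per the labels' protocols, so overlapping and antisense genes cannot be told apart. The 4 rows with ambiguous date names were dropped, at most 0.000913% of a library. Counts were fitted with edgeR 4.0.16 in R 4.3.3: filterByExpr, TMM factors and robust quasi-likelihood tests over all 12 libraries, with Benjamini-Hochberg adjustment over 29114 genes in each of 9 comparisons. Fits per line used 24026 genes in A375 and 24087 in LOX-IMVI BR. DESeq2 1.42.0, limma 3.58.1 voom, other factors, a replicate block, no filter, left-out libraries and a GC correction (loess per library) were alternatives. The fits with GC correction held only genes with a GC value, so all genes not named by a symbol were left out of them. GC and length came from the longest coding transcript in GENCODE. Depth limits the precision of low genes, and the limit for a count of 0 is 3 counts. The script was tested on simulated data in which both lines had the same spread. That test does not cover the difference in spread between the lines seen here. Members, lists and tests were chosen with earlier results of these data known. Genes named were 24 followed genes, the 3 called members with the largest fall and rise per comparison, calls against the majority, CDKN1A, and up to 3 called genes per other list by smallest adjusted p. CDC25C in LOX-IMVI BR with BIBR1532, INCENP, NUSAP1, TPX2, the calls that GC correction changed, CKS1B, CDKN3 and the marker genes were named after their values were seen.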

Additional observations from a re-analysis of the deposited data

Results flagged for a closer look

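The effect of 6-thio-dG differed between the lines for 4 genes, each lower in LOX-IMVI BR relative to A375 by the edgeR interaction test. The log2 differences (n = 2 libraries per group) were −1.73 for CCNB1, −1.90 for PLK1, −1.71 for PTTG1 and −2.79 for KIF20A (edgeR adjusted p = 0.0268, 0.0121, 0.0364 and 0.00108). The effect of BIBR1532 differed for 7 genes, each higher in LOX-IMVI BR relative to A375. The log2 differences were 2.39 for BUB1, 2.33 for BUB1B, 3.92 for CENPE, 2.33 for KIF23, 3.57 for ANLN, 3.55 for HMMR and 3.55 for TOP2A (edgeR adjusted p from 0.0245 to 0.0476). Of these 7, the GC content of 6 was under the median of the set, and the part of GC in the result was not tested beyond the GC correction, under which all 7 passed.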

How the results depend on the processing

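In A375 with 6-thio-dG the 35 calls were 9 with voom, 14 on the line alone and 23 to 37 with 1 library left out (23 without control replicate 2). In A375 with BIBR1532 the 15 were 8 with symbol-named genes only, 0 on the line alone and 0 to 16 with 1 left out. In LOX-IMVI BR with 6-thio-dG the 41 were 29 to 35. With BIBR1532 there the 0 were 3 by DESeq2, 2 with no filter, 37 with voom, 3 with GC correction, 3 with the replicate block and GC, 40 on the line alone and 0 to 0 with 1 left out. Between compounds the 18 in A375 were 28 with no filter, 7 on the line alone and 12 to 35 with 1 left out (35 without 6-thio-dG replicate 2), and the 41 in LOX-IMVI BR were 36 to 40. For the 6-thio-dG effect between lines the 4 were 8 by DESeq2, 2 with the replicate block, 11 with GC correction, 12 with both and 1 to 21 with 1 left out. For BIBR1532 the 7 were 4 with DESeq2 size factors, 17 by DESeq2, 19 with no filter, 0 with symbol-named genes only, 25 with voom, 12 with the replicate block, 18 with GC correction, 20 with both and 0 to 15 with 1 left out. The 30 between controls were 17 to 27 (17 without A375 control replicate 1). The share of all genes called was counted for the main fit and the fits per line, and not for the other fits. Counts of the set in those other fits therefore have no background beside them. The cause was not tested.

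The replicate numbers were not used as pairs in the main fit. Same-numbered deviations correlated at −0.12, −0.25 and 0.57 in A375 and 0.00, 0.04 and 0.03 in LOX-IMVI BR. The value of 0.57 was between the 6-thio-dG and BIBR1532 groups of A375. Whether same-numbered libraries were made together was not tested. With upper-quartile factors the all-gene median moved by 0.39 (A375) and 0.23 (LOX-IMVI BR) with 6-thio-dG, 0.23 and −0.12 with BIBR1532, 0.16 and 0.35 between compounds, and −0.17 and −0.35 in the effects between lines. The share of all calls that were higher then moved from 54.6% to 80.0% in A375 and from 57.8% to 73.5% in LOX-IMVI BR with 6-thio-dG, from 53.8% to 66.4% in A375 with BIBR1532, from 45.4% to 60.1% and from 48.0% to 69.5% between compounds in A375 and LOX-IMVI BR, and from 57.5% to 38.1% in the BIBR1532 effect between lines. DESeq2 size factors shifted the median by −0.11 between compounds in A375. Over the single genes and alternatives 2835 values kept their direction and side of the threshold, 392 lost the call, 80 gained it and 0 reversed.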
